A study of Rattus norvegicus with 8 samples.

Results

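The genes described here encode the ligands of transforming growth factor beta (Tgfb1, Tgfb2 and Tgfb3), its receptors (Tgfbr1, Tgfbr2 and Tgfbr3) and its latent binding proteins (Ltbp1 and Ltbp2). They were taken from the array by name: every probe set that the platform annotation assigns to exactly 1 of these 8 genes was used. That gave 10 of 31042 probe sets and 7 of 14217 named genes, since no probe set with the single name Tgfbr2 was among those used here. Tgfb2, Tgfbr1 and Tgfbr3 had 2 probe sets each, called brighter and dimmer here by their mean over the 8 arrays. Expression was measured on Affymetrix arrays in RNA of the rat femur growth plate, the cartilage through which a long bone lengthens. There are 4 groups, the perichondral, reserve, proliferative and hypertrophic zones, each with 1 array from rats 46 days old and 1 from rats 42 days old. No strain, genotype or treatment is given in the labels, and each array carries RNA pooled from 3 rats, so no value belongs to a single animal. No zone is a control, and the ages serve as the 2 replicates of a zone, so that the spread within a zone is a spread between pools of different age.

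Ligands of this family are secreted inside a latent complex. The cleaved propeptide stays wrapped around the ligand, and a latent binding protein ties that complex to fibres of the matrix until it is released. Released ligand binds the type II receptor, which activates the type I receptor (Tgfbr1), and this kinase phosphorylates Smad2 and Smad3, which enter the nucleus with Smad4. Tgfbr3, also called betaglycan, is a co-receptor that presents ligand, Tgfb2 above all, to the other receptors. In growth plate cartilage the pathway is known for holding chondrocytes back from hypertrophy, as shown in mice.

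The deposited values are linear intensities scaled to a common trimmed mean. They are given here as deposited, and for tests as quantile normalized log2(intensity + 16), called log2 values below. As a yardstick for background, the 0.95 quantile of the log2 values of 30 genes typical of other organs was 9.29, and a value under it is called below the other-organ level. The median of all log2 values of an array was lower, 8.25, so a gene below that level is not shown to be absent. The 6 measured chondrocyte markers, among them Col2a1 and Acan, were above that level in all 4 zones. The zone names were only partly borne out by markers. Of the 5 markers of dividing cells, 0 had their highest mean in the proliferative zone, as did 26.6% of all probe sets. An unadjusted p under 0.05 in the F test among zones was reached by 0 of these 5, so no order of zones was detected for them. Of the 5 markers of hypertrophic chondrocytes, 3 were highest in the hypertrophic zone, with Col10a1 called among zones (adjusted p = 0.0412), and 2 in reserve. Only Col10a1 and Mmp13 of the 5 averaged above the other-organ level. Mmp13 averaged 14.74 in reserve against 14.41 in hypertrophic arrays, a difference that was not called (adjusted p = 0.932 with limma). It was called higher in reserve than in proliferative arrays (adjusted p = 0.000948). Of the 5 fibrous perichondrium markers, 3 were highest in perichondral arrays, and 2 (Col1a1 and Col1a2) in reserve, as were 3 of 3 bone markers. The 46-day hypertrophic array had the lowest chondrocyte sum of the 8, an intensity of 69143 over the 6 markers, against 211865 to 502675 in the other 7. The 42-day hypertrophic array had the highest sums for fibrous perichondrium (204279, against 4441 to 140126 in the other 7) and bone (77105, against 859 to 39876). The 3' to 5' ratio of the Gapdh control, which rises as RNA degrades, was 3.78 and 4.47 in perichondral, 3.96 and 8.15 in reserve, 5.39 and 7.10 in proliferative, and 3.63 and 4.30 in hypertrophic arrays at 46 and 42 days. It was thus higher at 42 days in every zone.

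Among the 7 genes, zones differed in pairs at an unadjusted p under 0.05 (limma) only for Ltbp1 and the brighter probe sets of Tgfb2 and Tgfbr1. None of these differences passed the test over all probe sets. A moderated F test of any difference among the 4 zones (limma, Benjamini-Hochberg over 31042 probe sets, threshold 0.05) called 0 of the 10 probe sets, and 12 of all probe sets, which is 0.0387%. The adjusted p of the 10 ran from 0.664 to 0.942. At an unadjusted p under 0.05 there were 2 of the 10, where 6.2% of all probe sets were under it. They were the brighter probe sets of Tgfb2 (adjusted p = 0.664) and Tgfbr1 (adjusted p = 0.747). The range between the highest and the lowest zone mean had a median of 1.58 log2 units over the 10 probe sets, and of 1.5 over all. It exceeded the largest gap between the arrays of a zone in 6 of the 10, where it did so in 27.5% of all probe sets.

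In the 6 pairs of zones, 0 of 60 differences of these probe sets passed, with an adjusted p of 0.388 at the lowest. The share of all probe sets that passed was 0% for perichondral against reserve and against proliferative, 0.029% for perichondral against hypertrophic, 0.0226% for reserve against proliferative and against hypertrophic, and 0.0129% for proliferative against hypertrophic. At an unadjusted p under 0.05 there were 6 of the 60 differences (10%), against 6.03% over all probe sets. These were 3 for Tgfb2, 2 for Tgfbr1 and 1 for Ltbp1. By pair they were 0 for perichondral against reserve (3.75% of all probe sets) and against proliferative (5%), 1 for perichondral against hypertrophic (6.17%), 1 for reserve against proliferative (7.64%), 2 for reserve against hypertrophic (8.1%) and 2 for proliferative against hypertrophic (5.52%). In 6 of the 10 probe sets both arrays of some zone lay above or below the other 6 arrays, where 28.2% of all probe sets did. None of the 10 had both proliferative arrays above (4.41% of all) or below (3.53%) the others, or both hypertrophic arrays above them (4.67%). The plot of values by array shows these separations, and the plot of zone differences shows how wide the intervals were.

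**Figure D1:**
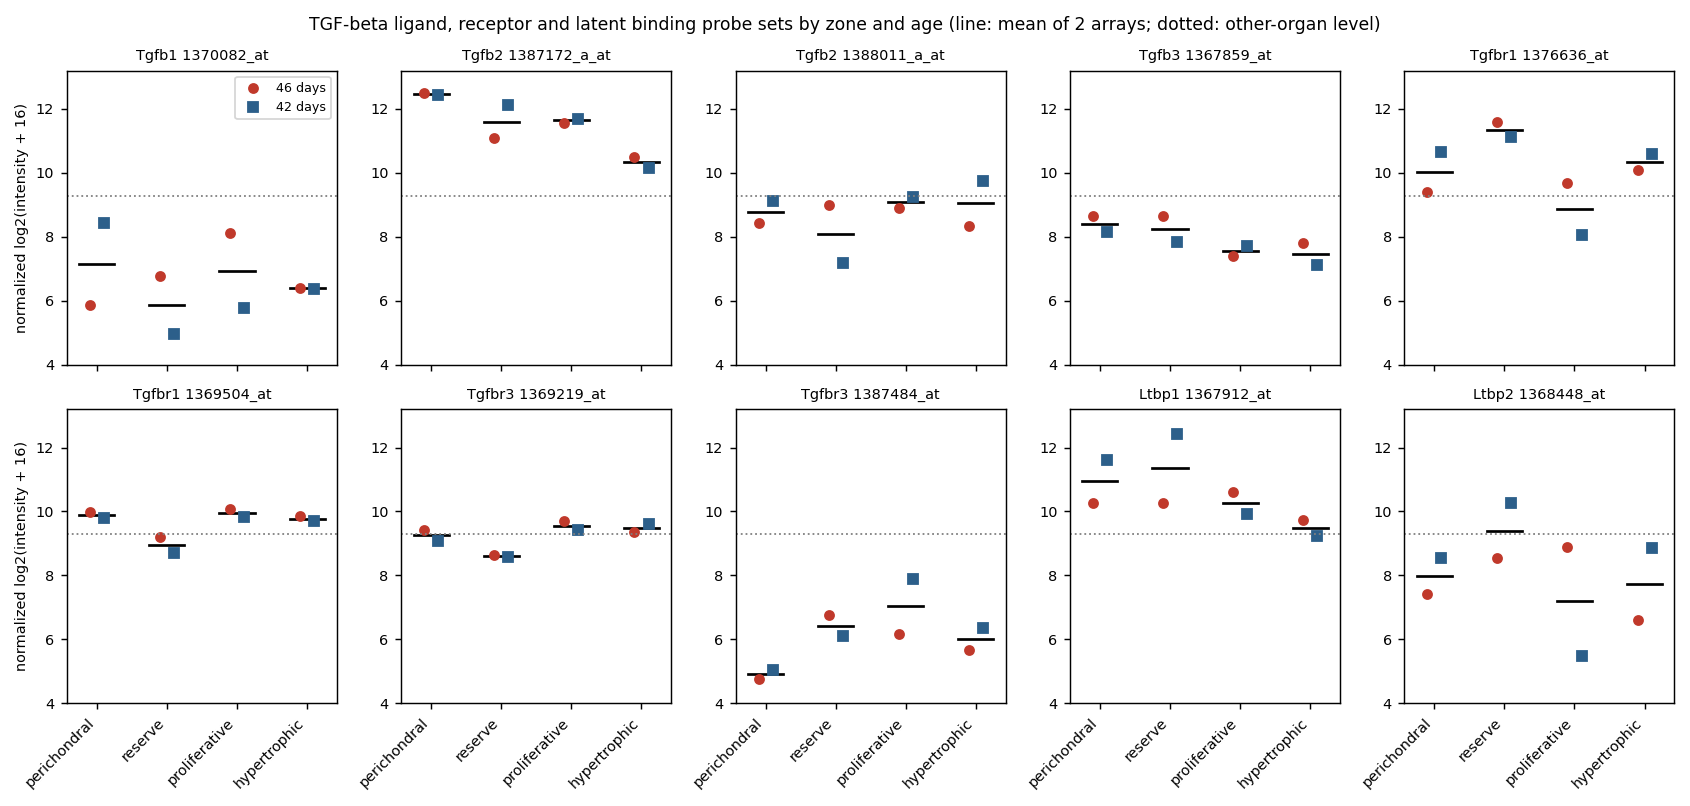
Quantile normalized log2(intensity + 16) of the 10 probe sets in each of the 8 arrays, with 46-day arrays as circles, 42-day arrays as squares, and a line at the mean of the 2 arrays of a zone; of paired probe sets the brighter is drawn first. The dotted line is the other-organ level of 9.29, and the brighter Tgfb2 probe set is the only probe set with all 8 arrays above it.

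By the brighter of its 2 probe sets, Tgfb2 was highest in the perichondral zone and lowest in the hypertrophic zone. The dimmer one, described below, did not follow it. The brighter probe set read deposited intensities of 5584 and 6625 in perichondral, 2195 and 5566 in reserve, 2440 and 3623 in proliferative, and 1390 and 1112 in hypertrophic arrays at 46 and 42 days. On the log2 scale the zone means were 12.47 ± 0.05 (SD, n = 2) for the perichondral zone, 11.60 ± 0.72 for reserve, 11.64 ± 0.09 for proliferative and 10.33 ± 0.24 for hypertrophic. Both perichondral log2 values lay above the other 6 arrays, as in 2.7% of all probe sets, and both hypertrophic values lay below the other 6, as in 3.93%. The perichondral mean was 4.40-fold above the hypertrophic mean, a difference of 2.14 log2 units (95% interval 0.98 to 3.29, unadjusted p = 0.00116, adjusted p = 0.438 with limma).

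The middle zones could not be told apart by this probe set. Reserve and proliferative arrays differed by -0.03 (95% interval -1.19 to 1.12). Each stood above the hypertrophic zone, reserve by 1.28 (interval 0.12 to 2.43, adjusted p = 0.583) and proliferative by 1.31 (interval 0.15 to 2.46, adjusted p = 0.897). Perichondral exceeded reserve by 0.86 (interval -0.29 to 2.02) and proliferative by 0.83 (interval -0.32 to 1.98), and both intervals take in zero. With each array left out, the perichondral minus hypertrophic difference ran from 1.96 to 2.36 and the perichondral minus reserve difference from 0.36 to 1.34. Reserve minus hypertrophic was 0.76 without the 42-day reserve array. The perichondral minus hypertrophic difference was also positive for 5 of 5 fibrous perichondrium markers (median 1.24 log2 units), of which Ogn was called (4.5, adjusted p = 0.0485). It was positive for 6 of 6 chondrocyte markers (median 1.20), of which 0 were called. All 6 chondrocyte markers had their lowest mean in the hypertrophic zone, and the part of either list in the Tgfb2 values was not tested.

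The dimmer Tgfb2 probe set did not follow the brighter. The dimmer one read 352 and 529 in perichondral, 480 and 104 in reserve, 540 and 577 in proliferative, and 343 and 838 in hypertrophic arrays at 46 and 42 days. It exceeded the other-organ level in 1 of the 8 arrays, and no zone separated from the others. The pair had a Pearson r of -0.39 over the 8 arrays, given as a description. Only the brighter probe set is therefore behind the order of zones given for Tgfb2.

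Tgfb1 and Tgfb3 were dim throughout. Tgfb1, the ligand stored in large amounts in bone matrix, read 45.4 and 309 in perichondral, 113 and 9.56 in reserve, 321 and 35.9 in proliferative, and 77.8 and 57.7 in hypertrophic arrays at 46 and 42 days. All 8 of its log2 values lay below the other-organ level, and those of perichondral, reserve and proliferative arrays overlapped widely. The perichondral minus reserve difference was 1.29 log2 units (95% interval -1.39 to 3.97), so an ordering of the zones was not detectable for Tgfb1. Without the 42-day perichondral array this difference vanished, at -0.000789, and without the 46-day one it was 2.58.

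Tgfb3, the ligand best known for its part in palate closure, read 414 and 253 in perichondral, 376 and 166 in reserve, 181 and 184 in proliferative, and 231 and 113 in hypertrophic arrays at 46 and 42 days. Its highest and lowest zone means were those of the same zones as for the brighter Tgfb2 probe set, with 8.41 ± 0.35 (SD, n = 2) for perichondral, 8.24 ± 0.57 for reserve, 7.57 ± 0.22 for proliferative and 7.46 ± 0.48 for hypertrophic. All 8 values were below the other-organ level. The lower value of the reserve arrays (7.84) was near the higher one of the hypertrophic arrays (7.80), and the perichondral minus hypertrophic difference of 0.96 had an interval from -1.13 to 3.04.

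**Figure D2:**
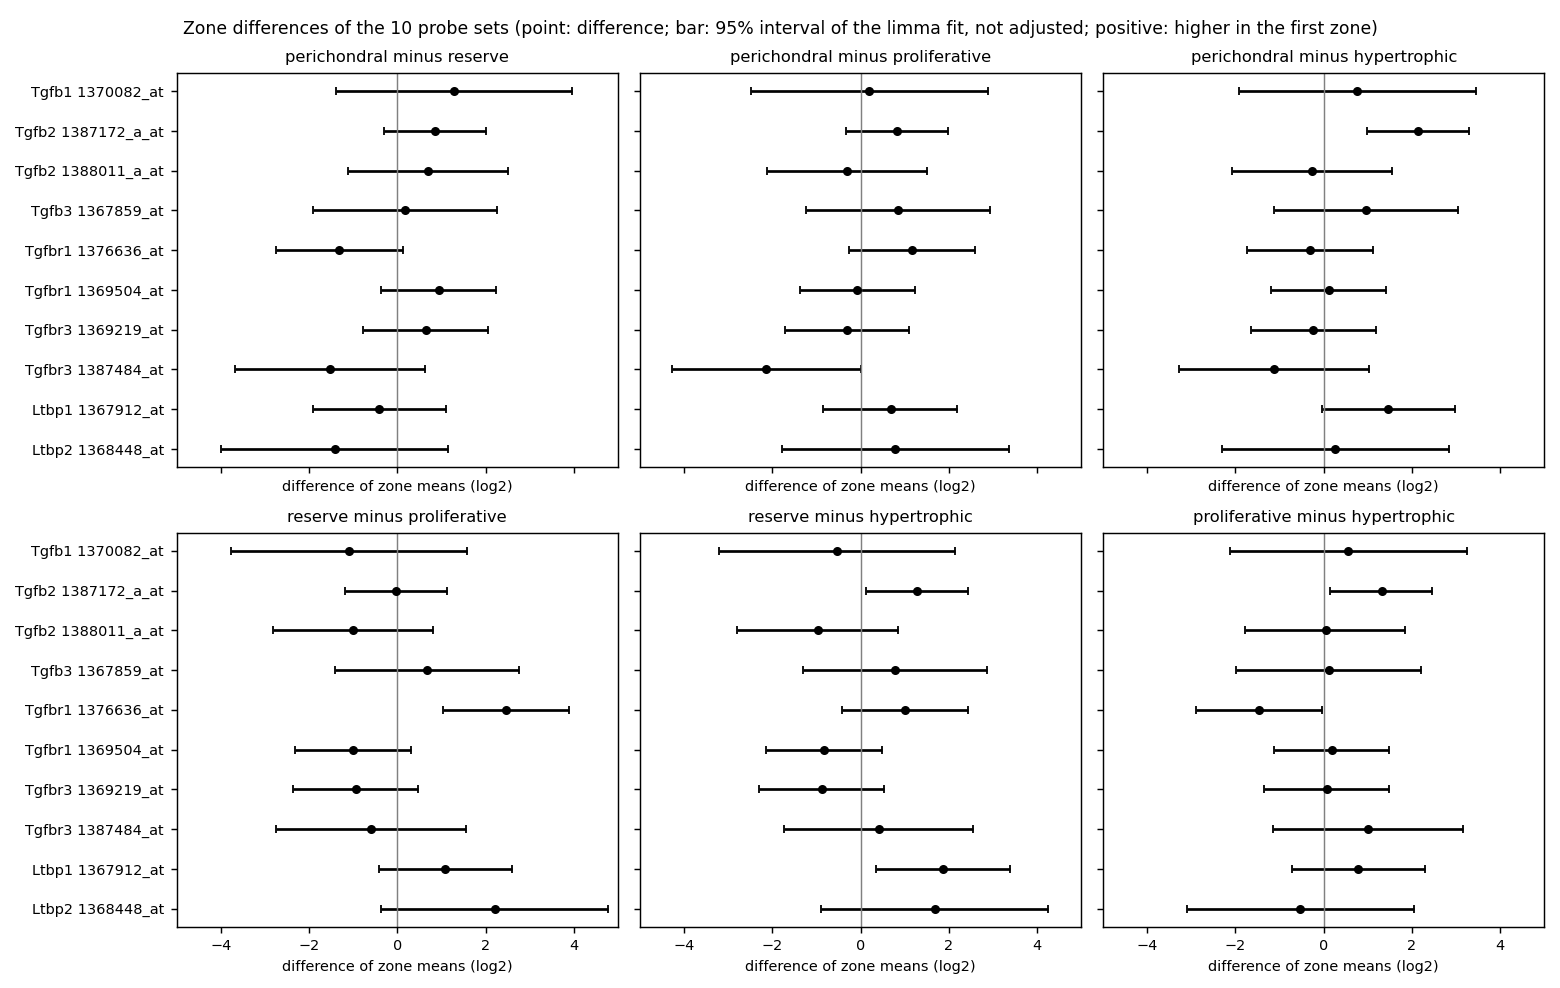
Differences of zone means on the log2 scale for the 10 probe sets in each of the 6 pairs of zones, with 95% intervals from the limma fit that are not adjusted for the number of tests. A positive value is higher in the zone named first, and 6 of the 60 intervals leave out zero, 3 of Tgfb2, 2 of Tgfbr1 and 1 of Ltbp1.

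For the receptor Tgfbr1 the probe sets disagreed on the reserve zone. The brighter one read 672 and 1647 in perichondral, 3093 and 2491 in reserve, 841 and 239 in proliferative, and 1077 and 1540 in hypertrophic arrays at 46 and 42 days. Both reserve log2 values, 11.58 and 11.11, lay above the other 6 arrays, as in 4.24% of all probe sets. The reserve mean was 5.54-fold above the proliferative mean, a difference of 2.47 log2 units (95% interval 1.04 to 3.90, unadjusted p = 0.00202, adjusted p = 0.388 with limma). Proliferative arrays were lower than hypertrophic arrays by a difference of -1.47 (interval -2.89 to -0.04, adjusted p = 0.897), and perichondral minus reserve was -1.31 (interval -2.74 to 0.12). Without the 42-day proliferative array the first of these differences was 1.64 and the second -0.64, and without the 46-day one they were 3.36 and -2.33.

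The dimmer probe set of Tgfbr1 was lowest, not highest, in the reserve zone. It read 980 and 870 in perichondral, 559 and 338 in reserve, 1047 and 869 in proliferative, and 930 and 811 in hypertrophic arrays at 46 and 42 days. Both reserve log2 values, 9.19 and 8.71, lay below the other 6 arrays, as in 4.82% of all probe sets. They were also below the other-organ level, and the other 6 were above it. Its perichondral minus reserve difference was 0.94 (95% interval -0.37 to 2.24) and its reserve minus proliferative difference -1.0 (interval -2.31 to 0.30). Over the 8 arrays the Tgfbr1 pair had a Pearson r of -0.645, so no direction for Tgfbr1 as a gene is given. The comparison plot of paired probe sets shows the reserve arrays at its lower right.

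Genes of other cell types were also highest in reserve arrays. The 7 leukocyte and marrow markers had summed intensities of 39264 and 43281 in reserve arrays at 46 and 42 days, against 958 to 3614 in perichondral and proliferative arrays and 1270 and 20234 in hypertrophic arrays. The 4 osteoclast markers summed to 6768 and 8577 in reserve arrays and to 138 to 2849 in the other 6, and 1 of them, Itgb3, is also in a pathway list used below. The 4 measured markers of red cell precursors summed to 35852 and 10955 in reserve arrays and to 831 to 10097 in the others, and none of these markers was listed at 0. The highest zone mean was in reserve for 5 of 7 leukocyte, 4 of 4 osteoclast and 3 of 4 red cell markers. Their part in the Tgfbr1 values was not tested, and in such bulk samples fewer cells of a type and less RNA per cell cannot be told apart.

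Betaglycan, Tgfbr3, was lowest in reserve by one probe set and lowest in perichondral arrays by the other. The brighter one read 671 and 507 in perichondral, 376 and 300 in reserve, 848 and 642 in proliferative, and 684 and 754 in hypertrophic arrays at 46 and 42 days. Both reserve values lay below the other 6, as in 4.82% of all probe sets, and below the other-organ level. The mean over the 8 arrays, 9.23, was also below that level, with 5 arrays above it. The reserve mean of 8.61 ± 0.04 (SD, n = 2) stood against 9.25 ± 0.23 in perichondral, 9.56 ± 0.21 in proliferative and 9.49 ± 0.17 in hypertrophic arrays. This was the smallest spread of any of the 10 probe sets, with no more than 0.33 log2 units between the arrays of a zone. The fit borrows spread from probe sets of like brightness, and the reserve minus proliferative difference of -0.94 had an interval from -2.36 to 0.47.

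The dimmer Tgfbr3 probe set read 12.7 and 14.6 in perichondral, 113 and 39.2 in reserve, 63.3 and 208 in proliferative, and 41.4 and 57.6 in hypertrophic arrays at 46 and 42 days. Both perichondral values lay below the other 6, as in 3.17% of all probe sets, yet all 8 were below the other-organ level. Perichondral minus proliferative was -2.13 log2 units (95% interval -4.28 to 0.02, unadjusted p = 0.0523). The Tgfbr3 pair had a Pearson r of -0.029 over the 8 arrays.

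**Figure D3:**
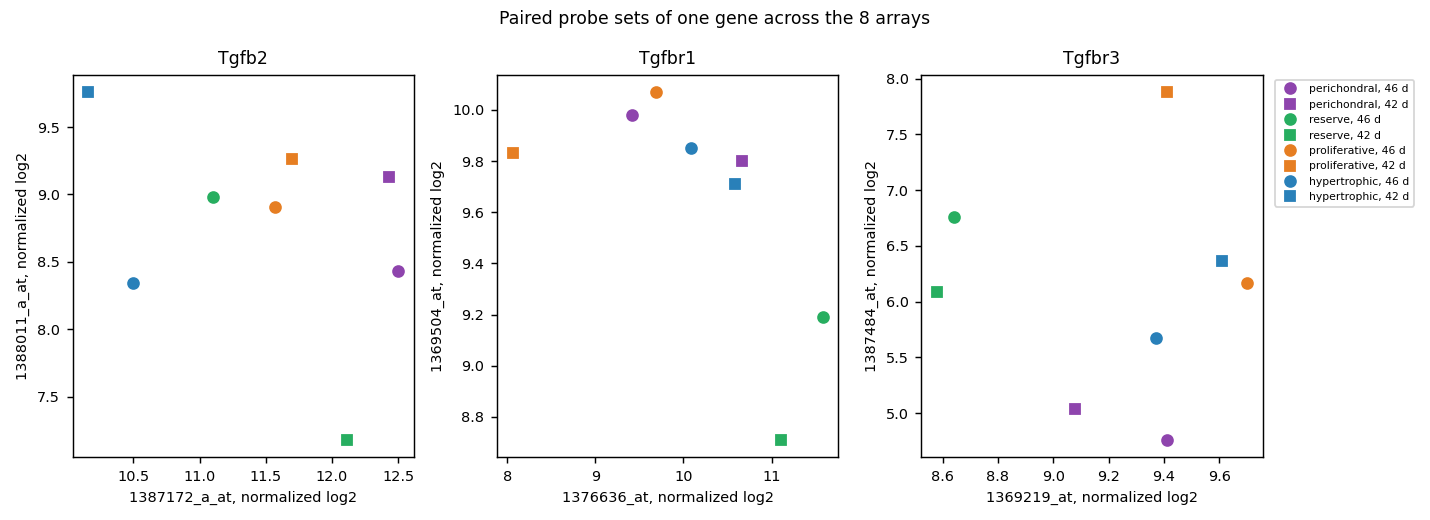
Log2 values of the brighter (horizontal) and dimmer (vertical) probe sets of Tgfb2, Tgfbr1 and Tgfbr3, 1 point per array, coloured by zone, with 46-day arrays as circles and 42-day arrays as squares. For Tgfbr1 the reserve arrays are the highest on the horizontal and the lowest on the vertical axis, and the Pearson r of the pairs is -0.39, -0.645 and -0.029 in the order drawn.

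Ltbp1, the latent binding protein that anchors the ligand complex to fibrillin and fibronectin fibres, was lowest in the hypertrophic zone and varied most between the ages of the reserve zone. It read 1187 and 3382 in perichondral, 1198 and 7180 in reserve, 1408 and 927 in proliferative, and 866 and 575 in hypertrophic arrays at 46 and 42 days. Both hypertrophic log2 values, 9.73 and 9.23, lay below the other 6 arrays, which ran from 9.91 to 12.44, as in 3.93% of all probe sets. The 6 chondrocyte markers also had their lowest mean in the hypertrophic zone. Both hypertrophic arrays lay below the other 6 for Col2a1, Hapln1 and Col9a1, but not for Acan, Col11a1 and Matn1. The part of these markers in the Ltbp1 values was not tested. The zone means were 10.94 ± 0.95 (SD, n = 2) for perichondral, 11.35 ± 1.54 for reserve, 10.26 ± 0.50 for proliferative and 9.48 ± 0.36 for hypertrophic. Reserve exceeded hypertrophic 3.66-fold, by 1.87 log2 units (95% interval 0.36 to 3.38, unadjusted p = 0.0184, adjusted p = 0.543 with limma).

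The 42-day reserve array decided much of that size for Ltbp1. Without it the reserve minus hypertrophic difference was 0.76, and without the 46-day reserve array it was 2.95. The 42-day reserve array also had the highest Gapdh 3' to 5' ratio of the 8, at 8.15, and the part of this ratio in the Ltbp1 value was not tested. Perichondral minus reserve was -0.41 (interval -1.92 to 1.10) and perichondral minus hypertrophic 1.46 (interval -0.05 to 2.97). At 46 days alone the Ltbp1 log2 values were 10.27 for perichondral, 10.26 for reserve, 10.62 for proliferative and 9.73 for hypertrophic.

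Ltbp2, a relative of Ltbp1 that binds fibrillin but not the latent ligand, had the widest gap between ages of the 10 probe sets. It read 166 and 335 in perichondral, 347 and 1307 in reserve, 535 and 27.4 in proliferative, and 89.6 and 442 in hypertrophic arrays at 46 and 42 days. The proliferative arrays differed by 3.41 log2 units between ages, more than the 2.21 between the highest and lowest zone means. Of its 8 values, 1 was above the other-organ level, that of the 42-day reserve array at 10.27. No zone separated, and reserve minus proliferative was 2.21 (95% interval -0.36 to 4.78).

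In the brighter Tgfb2 probe set and in Ltbp1 alike, both hypertrophic arrays lay below the other 6. Over the 8 arrays these probe sets had a Pearson r of 0.699, against -0.186 for Tgfb2 with the brighter Tgfbr1 probe set and 0.362 for Ltbp1 with it. Upstream windows were read for the 7 genes, each the 250 bases before the start that RefSeq's promoter table on GRCr8 uses for the gene. In 5 of the 7 the window overlapped the annotated span of the gene, wholly for Tgfb2, Tgfb3 and Ltbp2, by 50 bases for Tgfbr1 and by 45 bases for Ltbp1, so such a window is not all upstream of the gene. Ltbp1 is printed for its hypertrophic values and its CRE match, with the 205 bases outside its span, chr6:26177347-26177551, 5′ to 3′ on the minus strand. Capitals mark matches on either strand to TGACGTCA (the cAMP response element, CRE), CACGTG (an E-box), GGGCGG (a GC box), CCAAT or TATAAA, and no matches overlap.
Ltbp1: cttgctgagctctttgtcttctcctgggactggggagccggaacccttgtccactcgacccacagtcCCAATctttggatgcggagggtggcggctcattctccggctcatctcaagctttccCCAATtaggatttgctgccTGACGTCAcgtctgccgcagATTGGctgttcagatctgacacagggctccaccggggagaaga

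Ltbp1 held 1 CRE and 3 CCAAT matches, all in the stretch printed, and the Tgfb2 window, which lies inside the gene, held 1 E-box match. Of the 7 measured genes, 1 held the CRE, against 1.59% of all 33469 windows of the same length, and 1 held the E-box, against 5.59%. GC boxes stood in 3 of the 7 genes (Tgfbr1, Tgfbr3 and Ltbp2), against 30.5% of all windows. CCAAT stood in 2 (Tgfbr1 and Ltbp1), against 34.0%, and TATAAA in 0, against 12.9%. The G and C share of the windows ran from 48.8% (Tgfb3) to 75.6% (Tgfbr1), with 61.6% for Tgfb2 and 56.8% for Ltbp1. A match is a run of letters and not a measured site, and these arrays did not measure binding.

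Age made no difference to any of these genes that passed the test. With zone as a covariate, limma called 0 of the 10 probe sets and 0 of 31042, which is 0%, between 46 and 42 days. At an unadjusted p under 0.05 there were 0 of the 10 and 8.43% of all. The mean differences, 46 minus 42 days, ran from -0.58 log2 units for Ltbp1 (95% interval -1.55 to 0.40) to 0.42 for Tgfb3 (interval -1.08 to 1.92). The dimmer probe set of Tgfbr1 was higher at 46 days in 4 of 4 zones, by 0.14 to 0.48 log2 units (mean 0.26, interval -0.65 to 1.17, adjusted p = 0.914). Ltbp1 was lower at 46 days in perichondral (-1.35) and reserve (-2.18) and higher in proliferative (0.71) and hypertrophic arrays (0.51). Each zone has 1 array per age, so whether the age difference itself varies between zones could not be tested. The Gapdh 3' to 5' ratio was higher at 42 than at 46 days in every zone, so age and RNA quality cannot be told apart here.

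Other genes of the pathway were followed in 6 lists, and Mmp9 was the only one of 43 measured genes that the F test called. At an unadjusted p under 0.05 there were 10 of the 43 (23.3%), against 6.2% of all probe sets. The lists were chosen with earlier results of these data known, and a gene stands in them by its brightest probe set. This share and those that follow therefore only describe the lists. The zone of lowest mean was perichondral for 7 genes (22.6% of all probe sets), reserve for 6 (27.9%), proliferative for 17 (24.2%) and hypertrophic for 13 (25.2%). The zone of highest mean was perichondral for 11 (21.7% of all probe sets), reserve for 19 (24.4%), proliferative for 6 (26.6%) and hypertrophic for 7 (27.3%). Reserve exceeded proliferative arrays in 31 of the 43 genes, with a median difference of 0.60 log2 units, against -0.068 over all probe sets. Perichondral exceeded proliferative arrays in 29 with a median of 0.75, against -0.024, and perichondral exceeded reserve arrays in 18 with a median of -0.15, against 0.029. Hypertrophic arrays were exceeded by reserve arrays in 31 as well, with a median of 0.38, against -0.063. They were exceeded by perichondral arrays in 25 (median 0.13, against -0.031) and by proliferative arrays in 19 (median -0.16, against 0). Mmp9, a gelatinase that can release the ligand from its latent complex and that osteoclasts make in quantity, had log2 values of 5.36 and 9.04 in perichondral, 12.09 and 13.30 in reserve, 5.70 and 5.48 in proliferative, and 12.48 and 11.79 in hypertrophic arrays at 46 and 42 days. The F test gave it an adjusted p of 0.00517. Mmp9 was higher in reserve than in proliferative arrays by 7.11 log2 units (SE 0.93, adjusted p = 0.00655) and lower in proliferative than in hypertrophic arrays by a difference of -6.55 (SE 0.93, adjusted p = 0.0251). Leaving out the 42-day reserve array or either proliferative array ended the F test's call, as did the filter on low values and a fit with no variance trend. Reserve and hypertrophic arrays differed by 0.56 in Mmp9, which was not called (adjusted p = 0.912 with limma). The osteoclast and marrow sums given above were also highest in reserve. In hypertrophic arrays at 46 and 42 days the osteoclast sums were 1226 and 2849, and the marrow sums 1270 and 20234. The part of these cell types in the Mmp9 values was not tested.

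Of the 4 matrix proteoglycans that bind the ligand, 0 were called and 2 had an unadjusted p under 0.05. Fmod, fibromodulin, a collagen-binding proteoglycan, had log2 values of 11.28 and 13.38 in perichondral, 11.86 and 14.13 in reserve, 8.57 and 10.75 in proliferative, and 6.24 and 8.55 in hypertrophic arrays at 46 and 42 days. Both hypertrophic values of Fmod lay below the other 6, though 8.55 was only just below the 8.57 of the 46-day proliferative array (F test adjusted p = 0.0830). Bgn, biglycan, was at 10.25 and 11.95 in perichondral, 9.65 and 12.79 in reserve, 9.34 and 10.09 in proliferative, and 7.56 and 6.45 in hypertrophic arrays (adjusted p = 0.283). Both hypertrophic values of Bgn lay below the other 6, as in 3.93% of all probe sets. The 6 chondrocyte markers also had their lowest mean in that zone, and their part in this and in the induced genes was not tested.

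Among the 5 measured genes known to be induced by the pathway, 0 were called, 3 had an unadjusted p under 0.05, and 4 had their lowest mean in the hypertrophic zone, as did 25.2% of all probe sets and 6 of 6 chondrocyte markers. Ccn2, a matricellular growth regulator, had log2 values of 16.02 and 15.58 in perichondral, 15.01 and 15.69 in reserve, 13.62 and 15.63 in proliferative, and 13.06 and 13.22 in hypertrophic arrays at 46 and 42 days (adjusted p = 0.768). Both hypertrophic values lay below the other 6, the separation seen in 3.93% of all probe sets. Tgfbi, a secreted adhesion protein, was at 10.72 and 12.88 in perichondral, 10.09 and 12.39 in reserve, 10.53 and 11.08 in proliferative, and 8.12 and 9.23 in hypertrophic arrays (adjusted p = 0.618), with the hypertrophic values again below the other 6. Tsc22d1, a leucine zipper protein, had zone means from 13.31 ± 0.91 (SD, n = 2) in reserve to 10.34 ± 2.93 in hypertrophic arrays, and its hypertrophic values of 8.27 and 12.41 had 3 of the other 6 between them.

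Of the Smads and co-repressors 0 of 6 genes were called and 1 had an unadjusted p under 0.05. That gene was Skil, a repressor of Smad signalling, with 12.60 and 12.35 in perichondral, 12.53 and 11.88 in reserve, 10.04 and 12.37 in proliferative, and 8.73 and 11.58 in hypertrophic arrays at 46 and 42 days (adjusted p = 0.802). The 46-day proliferative and hypertrophic arrays were its 2 lowest values. Smad4, the shared partner of the signalling Smads, ranged over 0.98 log2 units between zone means, and Tgif1, another co-repressor, over 1.28.

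The remaining lists held few called differences. Their median ranges of zone means were 2.05, 1.3 and 1.49 log2 units in the order below, against 1.5 over all probe sets. Of 8 genes of the latent complex and microfibrils 0 were called and 1 was at an unadjusted p under 0.05, Fbn1, with a range of 2.85. Fn1 (fibronectin) and Ltbp3, another latent binding protein, had zone means within 1.46 and 0.74 log2 units. Of 11 release and activation genes 1 was called, Mmp9. At an unadjusted p under 0.05 there were 2, Mmp9 and Itgb3, the latter with a range of 4.52. The protease Furin, which cleaves the propeptide, and the integrin Itgb6 had ranges of 0.96 and 1.56. Of 9 co-receptors and receptor regulators 0 were called and 1 was at an unadjusted p under 0.05, Smurf1, with a range of 3.07. Fkbp1a, which binds the type I receptor, had a range of 0.45. Of all probe sets 6.2% had such a p. Fbn1, Itgb3 and Smurf1 averaged below the other-organ level. The plot of pathway genes gives the values of the other named genes by array.

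**Figure D4:**
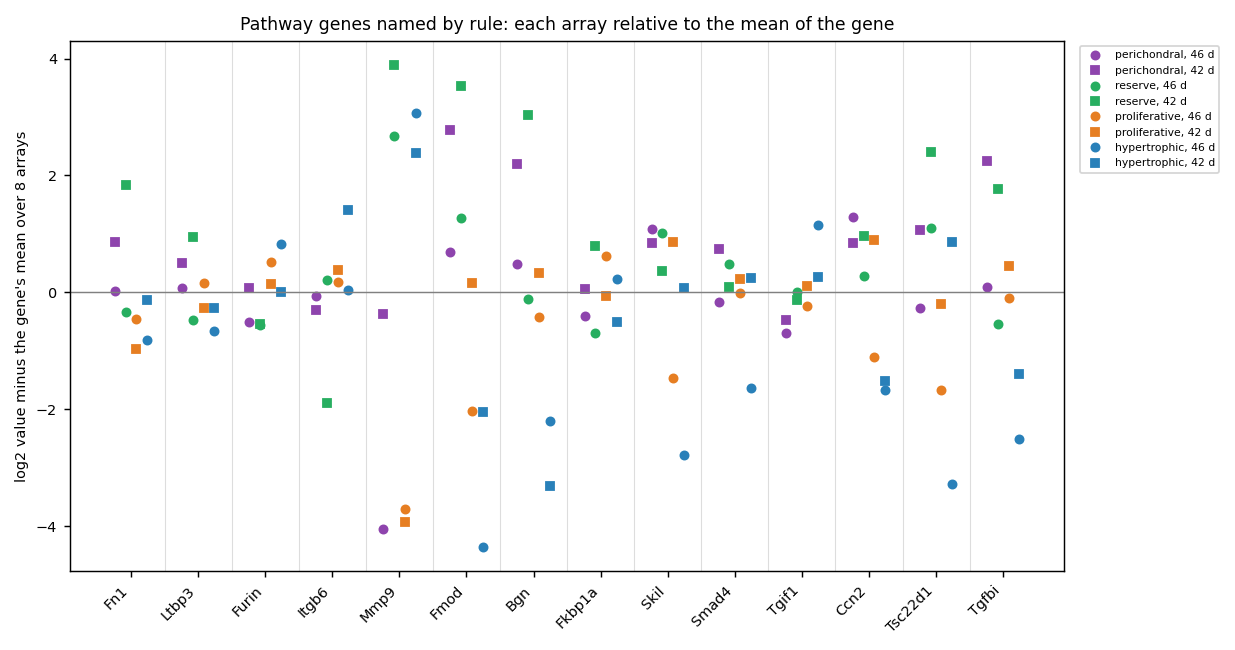
Log2 value of each array minus the mean of the gene over 8 arrays, for the 14 pathway genes named by the rule, coloured by zone, with 46-day arrays as circles and 42-day arrays as squares. Hypertrophic arrays are the lowest for Fmod, Bgn, Ccn2 and Tgfbi, and Mmp9 splits reserve and hypertrophic arrays from the rest.

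The genes whose pattern was most like that of each brighter member were sought among 3269 named genes above the other-organ level, by Pearson r over the 8 arrays. For the brighter Tgfb2 probe set these were Tcf7, a transcription factor of Wnt signalling (r = 0.958), the translation factor Eif5a2 (0.952) and Sfrp1, a secreted Wnt inhibitor (0.938). On the log2 scale Tcf7 averaged 12.06 for perichondral and 9.34 for hypertrophic. For Ltbp1 they were Cope, a subunit of the vesicle coat COPI (0.947), the ribosomal protein gene Rps24 (0.946) and Meltf, melanotransferrin (0.937). For the brighter Tgfbr1 probe set they were Ttc9c (0.945), Lysmd3 (0.943) and Srgn, serglycin, a proteoglycan of blood cell granules (0.940). Srgn averaged 11.96 in reserve and 6.49 in proliferative arrays. With 8 arrays that share zones and ages, these values only describe the order of the arrays.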

How the data were processed

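The labels' protocols name RNeasy extraction, Ovation amplification and a biotin label. The authors deposited linear intensities, and MAS5, GCOS and RMA stand in the submitters' processing notes, with no version or role. Trimmed means with a share of 0.02 were 500.08 to 500.16 in all arrays. No source used here names a genome build.

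The 57 control probe sets were left out. Values were taken as log2(intensity + 16), which understates the differences of dim genes, and quantile normalized with limma 3.58.1 in R 4.3.3. The limma fit over 8 arrays had 1 mean for each zone, with moderated variances that follow the mean level (residual degrees of freedom 4, prior 12.58). For age, zone was the covariate. Intervals are 95% and unadjusted. The number of arrays limits the precision, and detection calls were not used here. Symbols came from the platform annotation, 20826 probe sets having 1, 436 several and 9780 none. A gene with several probe sets stands in the pathway and marker lists by its brightest. Named were all members, pathway genes past the threshold or among the 3 widest ranges of zone means in a list above the other-organ level, and the 3 genes most alike in pattern to each member gene above that level. Fbn1, Itgb3 and Smurf1 were named besides, for their unadjusted p in the F test. Members and lists were chosen with earlier results of these data known. The zone fit was run on simulated data with independent noise and changes in the perichondral zone only. That run held no shared effect of age or RNA quality and did not cover the age fit. Alternatives were other normalizations, pseudocounts of 1 and 64, a filter on low values, no variance trend, age as a block and each array left out.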

Additional observations from a re-analysis of the deposited data

How the results depend on the processing

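All alternatives left the counts of the 10 probe sets at 0 among zones, in pairs of zones and for age, and 7 of the 10 passed the filter on low values. With age as a replicate block the smallest adjusted p of the 10 was 0.309 among zones and 0.127 in pairs. Over all probe sets the arrays of one age hardly deviated together: the 46 minus 42 day differences of 2 zones correlated with r from 0.0225 to 0.0806. This does not hold for every gene. Fmod was lower at 46 than at 42 days in each zone, as was the summed intensity of the chondrocyte markers. The count of pathway genes called among zones was 1, and 3 with age as a replicate block (Bgn, Fmod and Mmp9), 0 with the filter and 0 without the variance trend, and 0 to 3 with each array left out. The F test over all probe sets called 12, against 96 with the block, 5 with array medians set equal, 4 with the filter, 0 without the trend and 2 to 80 with an array left out. For age limma called 0, against 45 as deposited, 140 with medians set equal and 5 with a pseudocount of 64. As deposited, the median over all probe sets was -0.179 for reserve minus proliferative and 0.106 for perichondral minus reserve, against -0.068 and 0.029.

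Signs of the perichondral minus reserve difference turned for 4 probe sets when an array was left out, and the cause was not tested. Ltbp1 was at 0.26 without the 46-day perichondral and 0.67 without the 42-day reserve array (range -1.49 to 0.67). Tgfb3 was at -0.0797 and -0.22 without these arrays (range -0.22 to 0.58). The dimmer Tgfb2 probe set was at -0.19 without the 42-day reserve array (range -0.19 to 1.62), and Tgfb1 at -0.000789 without the 42-day perichondral array (range -0.000789 to 2.58). The other perichondral minus reserve differences kept their sign in every alternative run. So did the 6 differences with an unadjusted p under 0.05, which were added to the alternatives after seeing the data.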
